A study of Sus scrofa with 6 samples.

Results

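The genes considered here were fixed by name: the EGF-like ligands *AREG*, *EREG*, *BTC* and *HBEGF*, their receptor *EGFR*, the prostaglandin enzymes *PTGS2* and *PTGES*, and the cumulus matrix genes *HAS2*, *TNFAIP6* and *PTX3*. In the deposited table of 17950 Ensembl pig genes, 9 of the 10 genes were found by their Ensembl gene name, and *EREG* was not named there and is not analysed here. The genes were chosen by name, with no rule on their values, but with earlier results of these data known. Porcine granulosa cells (GCs), the somatic cells that line the follicle and surround the oocyte, came from Landrace ovaries of pre-pubertal gilts and were grown for 24 h in medium with 10% fetal bovine serum before infection. They were then infected for 72 h with lentivirus made from pLVX-IRES-ZsGreen, which also encodes a green fluorescent protein, either with the porcine *RBP4* cDNA (pLVX-*RBP4* group, 3 libraries) or without it (CTRL group, 3 libraries). Both groups thus carried the vector and the reporter, and no uninfected cells and no cells given LH were among the samples. RNA was sequenced, and the authors' table holds 1 value per gene and group in FPKM, fragments scaled to transcript length and to the mapped fragments of the library, so the spread between libraries is unknown here and no test between the groups was possible. Read totals are stated by the study for each library, with more mapped reads in every pLVX-*RBP4* library than in any CTRL library, but the table gives no fragment counts per gene.

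In the preovulatory follicle, the LH surge makes granulosa cells shed the EGF-like factors amphiregulin, epiregulin and betacellulin from their surface. These bind EGFR on granulosa and cumulus cells and carry the signal inward to the oocyte. EGFR signalling then switches on the genes of cumulus expansion, in which HAS2 makes hyaluronan, TNFAIP6 and PTX3 cross-link it into a matrix, and PTGS2 with PTGES makes prostaglandin E2. In the current RefSeq gene order of the pig, *EREG*, *AREG* and *BTC* are direct neighbours, with *EPGN*, the gene of a further EGF-like ligand, on the other side of *EREG*. *PTGS2* lies beside *PLA2G4A*, whose enzyme releases the arachidonic acid that PTGS2 converts.

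*EGFR* and *PTGS2* had the largest differences among these genes, and both were lower in pLVX-*RBP4* cells. *HAS2* and *PTX3*, the measured matrix genes, were both slightly higher there, *HBEGF* and *AREG* were slightly lower, and *BTC* was slightly higher. *PTGES*, the most abundant of the genes, had nearly equal values, and *TNFAIP6* was listed at 0 in both groups. Differences below are those of log2(FPKM + 1), pLVX-*RBP4* minus CTRL, a scale that understates the difference of weakly expressed genes. They were set against the 12382 genes whose mean over the groups reached 1 FPKM, among which the median difference was 0.0014 and 90% of the genes lay between -0.33 and 0.37. Of the 8 measured genes above that limit, 5 were lower and 3 higher in pLVX-*RBP4* cells, beside 49.8% lower and 50.2% higher among all genes compared, and their median difference was -0.063.

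The overexpression itself was visible in the table. *RBP4* had 1.10 FPKM in CTRL cells and 92.3 FPKM in pLVX-*RBP4* cells, reads of the introduced cDNA included. Granulosa markers were present, with 9 of 18 found by symbol, all above 1 FPKM in both groups. Of these, 3 were higher and 6 lower in pLVX-*RBP4* cells, beside 49.8% lower among all genes compared, with a median difference of -0.035. Their summed level was 1510 FPKM in CTRL cells and 1642 FPKM in pLVX-*RBP4* cells, and *GJA1* alone carried the higher sum. Among them *FSHR*, the FSH receptor, had 9.99 and 8.47 FPKM and *GJA1*, the main granulosa gap junction gene, 675.1 and 813.8 FPKM, while *CYP19A1*, *AMH* and *FOXL2* were not found by symbol. Of 3 theca markers, *CYP17A1* was not found by symbol, and *INSL3* was listed at 0 in CTRL cells and at 0.292 FPKM in the other. *LHCGR*, the LH receptor, was below 1 FPKM in both groups, but the paper also speaks of its expression in GCs. Stromal and smooth muscle markers were unequal in level, with 10 of 12 found and a summed level of 3251 and 3512 FPKM. *TAGLN* led with 1809 and 1891 FPKM, followed by *ACTA2* with 644.1 and 687.8 FPKM. The smooth muscle genes *MYH11*, with 2.17 and 1.54 FPKM, and *DES*, with 0.584 and 0.413 FPKM, were low. The summed level of 2 endothelial markers was 19.9 and 19.0 FPKM, with *PECAM1* at 16.33 and 15.99 FPKM and *KDR* at 3.55 and 3.03 FPKM. That of 5 leukocyte markers was 48.6 and 55.4 FPKM, most of it *CD14* with 42.9 and 48.9 FPKM. *LYZ* had 1.01 and 1.35 FPKM, and *PTPRC*, which defines leukocytes, was below 1 FPKM. *EPCAM*, the only epithelial marker of 6 that was found, was also below 1 FPKM.

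The levels of the genes spanned 228-fold among the 8 that were above 0, from *BTC* to *PTGES*. In the CTRL group the order was *PTGES*, *EGFR*, *HBEGF*, *PTX3*, *HAS2*, *PTGS2*, *AREG*, *BTC* and *TNFAIP6*. In the pLVX-*RBP4* group *PTX3* stood before *HBEGF* and *BTC* before *AREG*, and the other positions were the same. Both exchanges were between neighbours that differed by at most 1.19-fold in either group, and without values of single libraries it cannot be said whether such neighbours differ. *PTGES* was 5.46 times *EGFR* in CTRL cells and 6.92 times *EGFR* in pLVX-*RBP4* cells. *AREG* and *BTC* lay near the lower end of the range, with 3.65% and 3.29% of the genes compared below them.

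**Figure D1:**
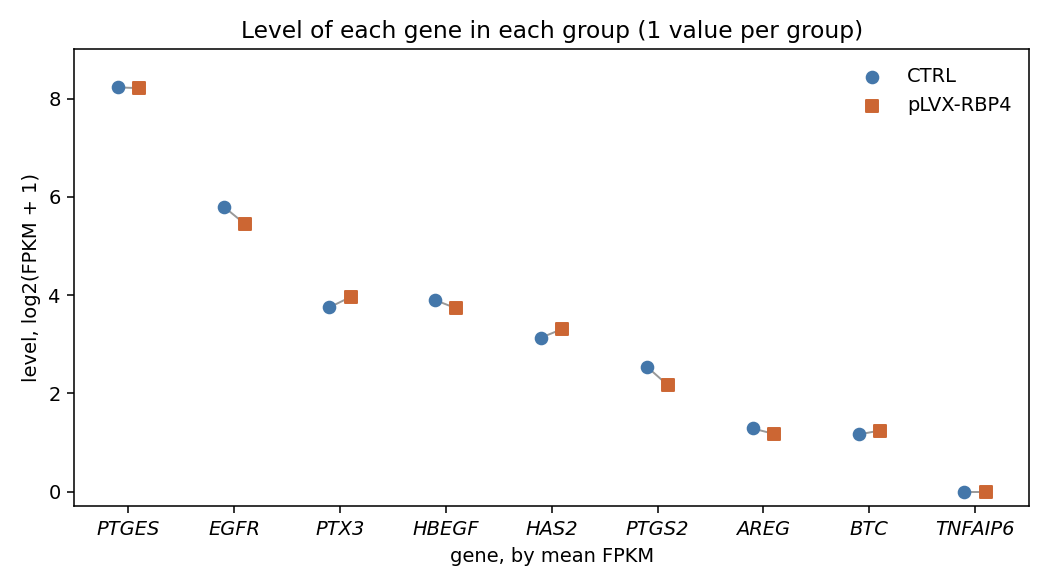
Level of each gene as log2(FPKM + 1), with the gene on the horizontal axis by mean FPKM. Circles are the CTRL group and squares the pLVX-*RBP4* group, 1 value each with no error bar because 1 value per group was deposited; *EGFR* and *PTGS2* show the largest steps between the groups, both downward, and *TNFAIP6* lies at 0.

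Among the ligands, *HBEGF* (ENSSSCG00000014362), the gene of heparin-binding EGF-like growth factor, was the most abundant of the 3 found. It had 13.9 FPKM in CTRL cells and 12.3 FPKM in pLVX-*RBP4* cells, a difference of -0.17 and a ratio of 0.882. *AREG* (ENSSSCG00000008963), for amphiregulin, had 1.44 and 1.26 FPKM, a difference of -0.11 and a ratio of 0.875. *BTC* (ENSSSCG00000008965), for betacellulin, which also activates ERBB4, had 1.24 and 1.37 FPKM, a difference of 0.080 and a ratio of 1.10. All 3 differences were small beside those of other genes, since 38.7% of the genes compared differed by more than *HBEGF* in either direction, 56.6% by more than *AREG* and 67.8% by more than *BTC*. *HBEGF* was 9.66 times *AREG* in CTRL cells and 9.74 times *AREG* in the other, so the balance of this pair was nearly the same, whereas *AREG* and *BTC* exchanged order.

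The remaining EGF family ligands put these values in proportion. *TGFA*, for transforming growth factor alpha, which also binds EGFR, exceeded the 3 ligands together with 81.5 FPKM in CTRL cells and 69.5 FPKM in pLVX-*RBP4* cells, a difference of -0.23. *EGF* itself was barely detected, with 0.0427 and 0.0941 FPKM. The 5 measured EGFR ligands summed to 98.1 FPKM in CTRL cells and 84.5 FPKM in pLVX-*RBP4* cells, a ratio of 0.861. *TGFA* made up 83.1% and 82.3% of this sum, and *HBEGF* 14.2% and 14.5%. *AREG* accounted for 1.47% and 1.49%, and *BTC* for 1.26% and 1.62%. These are shares of the 5 measured ligands only, since *EREG* and *EPGN* were not found by name. *NRG1*, for neuregulin 1, a ligand of ERBB3 and ERBB4, was below 1 FPKM, with 0.423 and 0.0509 FPKM, and the genes *EPGN*, *NRG2*, *NRG3* and *NRG4* were not found by symbol.

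**Figure D2:**
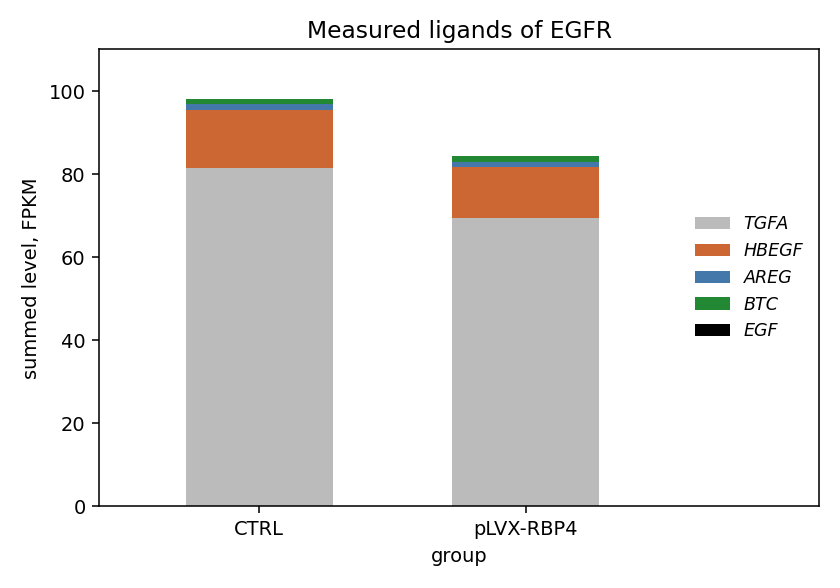
Summed level in FPKM of the 5 measured ligands of EGFR in each group, stacked by gene, 1 value per gene and group with no error bar. *TGFA* fills most of each bar, *HBEGF* is the next largest part, and the sum is 98.1 FPKM in CTRL cells and 84.5 FPKM in pLVX-*RBP4* cells.

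*EGFR* (ENSSSCG00000022126), the receptor tyrosine kinase that these ligands share, was abundant, and 82.8% of the genes compared had a lower mean level. It had 54.8 FPKM in CTRL cells and 42.7 FPKM in pLVX-*RBP4* cells, a difference of -0.35 and a ratio of 0.779. Of the genes compared, 4.28% had a lower difference. *EGFR* was 1 of 2 members lower by at least 0.322, a ratio of 5 to 4 on the FPKM + 1 scale, beside 5.31% of all genes compared, and no member was higher by as much, beside 7.11%. At 1.5-fold, no member passed in either direction, beside 1.28% of genes that were lower and 1.49% that were higher. After both groups were rescaled to a common sum, the difference of *EGFR* was -0.27 and neither member reached this limit.

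The other receptors of the family were less abundant. *ERBB2*, which has no ligand of its own and pairs with the others, had 17.6 and 15.8 FPKM, a difference of -0.15. *ERBB3* had 0.188 and 0.131 FPKM and *ERBB4* 0.174 and 0.202 FPKM, so that *EGFR* and *ERBB2* were the only receptors of the 4 with a mean of at least 1 FPKM. *EGFR* was 3.11 times *ERBB2* in CTRL cells and 2.71 times *ERBB2* in pLVX-*RBP4* cells, a ratio within each group that scaling cannot alter. The genes whose pair of group values lay nearest to that of *EGFR* were *CHD3*, with 52.1 and 44.1 FPKM, and *UCP2*, with 51.4 and 42.8 FPKM, at distances of 0.085 and 0.090 on the log2 scale. With 2 values per gene such a likeness says little.

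Genes around the receptor differed in both directions. Of 9 genes for the release of ligands from the cell surface, 4 were higher and 5 lower in pLVX-*RBP4* cells, with a median difference of -0.025. *ADAM12*, a metalloproteinase known to shed HB-EGF, was the most abundant of them and had the lowest difference, with 179.3 and 140.6 FPKM (-0.35). This was close to the difference of *EGFR*. *ADAM12* and *ADAM8* (33.9 and 26.7 FPKM, -0.34) were lower by at least 0.322, beside 5.31% of all genes compared. None of the 9 was higher by as much, beside 7.11%. These counts were made without rescaling. *EGFR*, whose difference was lower than that of *ADAM12* or *ADAM8*, did not reach the limit after rescaling to a common sum. *ADAM10* had the highest difference, with 17.7 and 19.8 FPKM (0.15). *ADAM17*, the main sheddase of amphiregulin and HB-EGF, named for this role after its values were seen, had 40.2 and 40.9 FPKM. Of 16 genes of signal transduction, 6 were higher and 10 lower, with a median of -0.027, and their differences lay between -0.18 for *SOS1*, the exchange factor of RAS, and 0.072 for *GRB2*, its adaptor. Of 11 feedback inhibitors of the receptor, 5 were higher and 6 lower, with a median of -0.024. The ubiquitin ligase gene *CBLB* was lowest, at -0.25, *SPRY1* highest, at 0.20, and *DUSP4*, a phosphatase that dampens the signal, most abundant, with 131.6 and 120.9 FPKM. These counts stand beside the 49.8% of all genes that were lower.

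**Figure D3:**
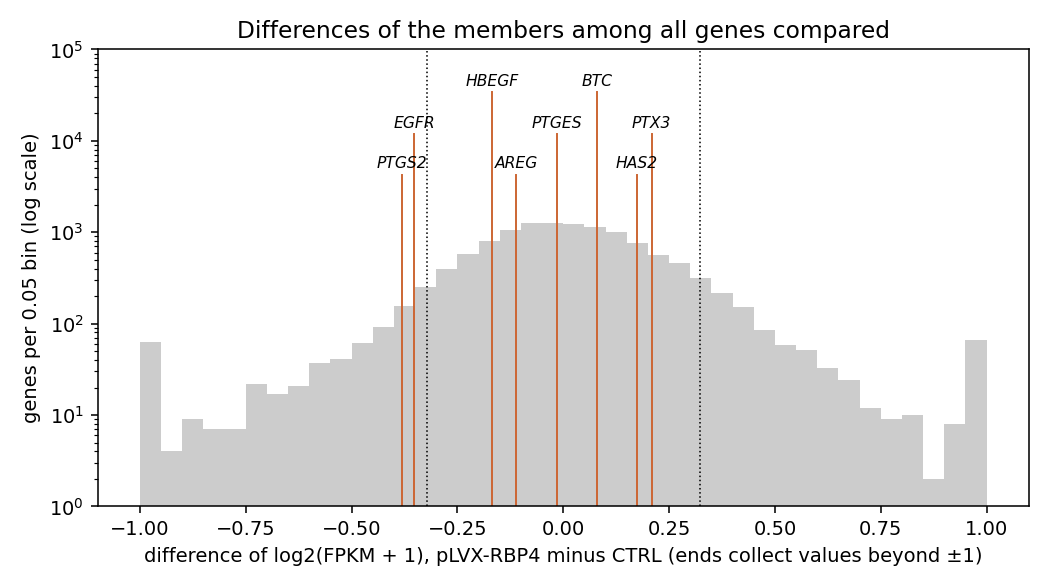
Histogram of the difference of log2(FPKM + 1), pLVX-*RBP4* minus CTRL, for the 12382 genes compared, with the number of genes per bin on a log axis and values beyond 1 collected in the end bins. Lines mark the 8 members compared and dotted lines the limits of 0.322 in each direction; *PTGS2* and *EGFR* lie just outside the lower limit and the other 6 members between the limits.

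*PTGS2* (ENSSSCG00000015579), the inducible cyclooxygenase, which the LH surge raises in granulosa cells, was weakly expressed. It had 4.83 FPKM in CTRL cells and 3.47 FPKM in pLVX-*RBP4* cells, a difference of -0.38 and a ratio of 0.720, the lowest ratio among these genes. Of the genes compared, 3.54% had a lower difference. That rank is among genes of all levels. A fall of at least 0.322 was seen in 5.31% of them, but in 3.69% of those with a mean of at least 5 FPKM. Falls of that size were thus more frequent among weakly expressed genes such as *PTGS2*. After rescaling to a common sum the difference of *PTGS2* was -0.319, just short of the limit of 0.322. The genes nearest to its pair of values were *COL6A2*, with 4.94 and 3.41 FPKM, and *TCF7L2*, with 4.97 and 3.40 FPKM, at distances of 0.034 and 0.041. *PTGS1*, the constitutive isoenzyme, named for its role after its values were seen, was more abundant, with 14.4 and 12.9 FPKM, or 2.98 times *PTGS2* in CTRL cells and 3.72 times *PTGS2* in the other.

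*PTGES* (ENSSSCG00000005688), the microsomal prostaglandin E synthase that works downstream of PTGS2, had 298.9 FPKM in CTRL cells and 295.7 FPKM in pLVX-*RBP4* cells, a difference of -0.015. Its mean level was above that of 97.3% of the genes compared, and 93.8% of them differed more between the groups. Its sign is not settled by these values, since its difference ran from -0.13 to 0.064 over the scalings tried. *PTGES* was 61.9 times *PTGS2* in CTRL cells and 85.2 times *PTGS2* in pLVX-*RBP4* cells. It was also 14.4 and 12.8 times *PTGES2*, and 4.06 and 3.75 times *PTGES3*, the genes of the other prostaglandin E synthases.

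Of 10 genes in the rest of the prostaglandin list, 5 were higher and 5 lower, beside 50.2% higher and 49.8% lower among all genes compared. Their median difference was 0.038. The most abundant was *PTGES3*, with 73.6 and 78.8 FPKM. The prostaglandin reductases stood at the ends, with *PTGR1* lowest (61.9 and 54.2 FPKM, -0.19) and *PTGR2* highest (10.8 and 12.3 FPKM, 0.17). *PLA2G4A*, the neighbour of *PTGS2*, had 11.7 and 12.7 FPKM, a difference of 0.11 and thus of the opposite sign to that of *PTGS2*. Of the receptors for prostaglandin E2, *PTGER2* had 2.41 and 2.37 FPKM, *PTGER3* 0.782 and 0.780 FPKM and *PTGER4* 0.751 and 0.661 FPKM. *PLA2G4A* and these receptors were named for their roles after their values were seen.

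*HAS2* (ENSSSCG00000005992), the hyaluronan synthase of cumulus expansion, had 7.79 FPKM in CTRL cells and 8.92 FPKM in pLVX-*RBP4* cells, a difference of 0.17 and a ratio of 1.14. *PTX3* (ENSSSCG00000011727), for pentraxin 3, had 12.5 and 14.6 FPKM, a difference of 0.21 and a ratio of 1.17. *PTX3* was 1.60 times *HAS2* in CTRL cells and 1.64 times *HAS2* in the other, so the balance between them was nearly the same. Neither difference was large for this table, since 37.3% of the genes compared differed by more than *HAS2* and 29.2% by more than *PTX3*. Without the gene of the highest value in the table, rescaling to a common sum put the median of all genes compared at -0.10 and left differences of 0.067 for *HAS2* and 0.098 for *PTX3*. *HAS1*, another hyaluronan synthase, was below 1 FPKM, with 0.414 and 0.334 FPKM.

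Stromal fibroblasts also make hyaluronan and pentraxin 3. Several genes of the stromal and smooth muscle list differed in the same direction as *HAS2* and *PTX3*, as did genes of other marker lists. Of 9 genes of the stromal list with a mean of at least 1 FPKM, 6 were higher and 3 lower in pLVX-*RBP4* cells. Among all genes compared, 50.2% were higher. The median difference of the 9 genes was 0.095. Their differences ran from -0.32 for *MYH11* to 0.37 for *LUM*, which had 6.82 and 9.10 FPKM. *PDGFRA* (-0.16) and *PDGFRB* (-0.089) were also lower. Of the granulosa markers, 3 were higher, among them *GJA1* (0.27) and *FST* (0.26), and 6 lower. All 3 leukocyte markers with a mean of at least 1 FPKM were higher, with a median difference of 0.18. Whether stromal cells were present, and their part in the values of *HAS2* and *PTX3*, was not tested. In a bulk sample more cells of a type and more RNA per cell cannot be told apart.

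*TNFAIP6* (ENSSSCG00000023716), whose protein moves heavy chains of the inter-alpha-trypsin inhibitor onto hyaluronan, was listed at 0 in both groups. An exact 0 in this table need not mean that a gene was silent. In all, 897 genes were listed at 0 in both groups, 76 of them with a symbol, and these included *HDAC1*, *APRT* and *GAR1*, which nearly all cells use. These 3 genes were picked after the values were seen. No fold is therefore given for *TNFAIP6*, and its expression in these cells was not determined.

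Other genes of the hyaluronan matrix differed in both directions. Of 18 with a mean of at least 1 FPKM, 6 were higher and 12 lower in pLVX-*RBP4* cells, beside 49.8% lower among all genes compared, with a median difference of -0.017. Past the limit of 0.322 there was 1 gene in each direction, beside 5.31% lower and 7.11% higher among all genes compared, counted without rescaling. The hyaluronan receptor gene *CD44* was the most abundant, with 144.7 and 142.5 FPKM. *HMMR*, for a hyaluronan-binding protein that also acts on the mitotic spindle, had the largest difference of the list, with 5.18 FPKM in CTRL cells and 8.57 FPKM in pLVX-*RBP4* cells (0.63). *ADAMTS4*, a protease that cleaves versican and aggrecan, was lowest, with 5.67 and 4.28 FPKM (-0.34). *VCAN*, the gene of versican, and *ADAMTS1*, the protease that cleaves it in the expanding cumulus, named for these roles after their values were seen, had 72.9 and 68.1 FPKM, and 24.5 and 24.0 FPKM.

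Of 16 genes of the LH surge and ovulation, 8 were higher and 8 lower, beside 50.2% higher and 49.8% lower among all genes compared. Their median difference was 0.015. *EGR1*, an immediate early transcription factor, was lowest, with 358.6 and 299.2 FPKM (-0.26). *CTSL*, for the lysosomal protease cathepsin L, was highest, with 14.6 and 19.9 FPKM (0.42). It was the 1 gene of the list higher by at least 0.322, beside 7.11% of all genes compared. None was lower by as much, beside 5.31%. *PGR*, the progesterone receptor gene that the LH surge induces in granulosa cells, stayed under 1 FPKM, at 0.522 and 0.546 FPKM.

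**Figure D4:**
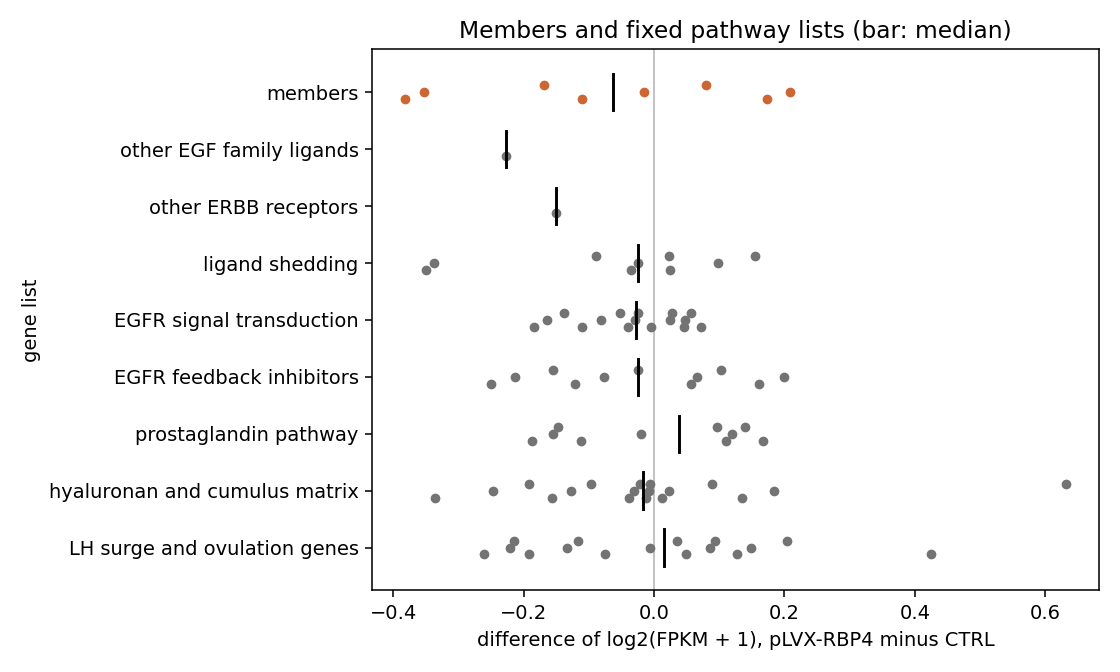
Difference of log2(FPKM + 1), pLVX-*RBP4* minus CTRL, of the 8 members and of the genes of 8 pathway lists with a mean of at least 1 FPKM, 1 point per gene and a bar at each median. The list medians lie between -0.23 and 0.038, the lists of further EGF family ligands and ERBB receptors holding 1 gene each, and *HMMR* at 0.63 is the point farthest from 0.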

How the data were processed

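Per the methods of the study, libraries were made with a NEBNext Ultra kit, and clean paired-end reads were mapped by TopHat2 on Sscrofa10.2, after which Cuffdiff (Cufflinks) compared the groups. Versions, annotation release and use of strand were not given in the sources used here, so antisense reads cannot be told apart. The authors deposited FPKM values, 1 per gene and group, and 0 columns were left out. The study states read totals per library, but FPKM without fragment counts per gene allow no counting interval, so none is given. The planned limma fit needs values of single libraries and was not run.

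Symbols were found for 10489 of 17950 genes in a table of Ensembl names. Gene order came from RefSeq (9 of 10 members matched). No coordinates are given, since the builds differ. Differences of log2(FPKM + 1) were computed for genes whose mean reached 1 FPKM, and limits of 1.5-fold and of 0.322 on the log2 scale were used. The arithmetic was checked on a copy of the CTRL values with set fold changes and no noise. That check says nothing on the spread between libraries. Members and lists were chosen with earlier results of these data known. Named are all members, *RBP4*, all EGF family ligands and ERBB receptors, in each list the most abundant gene and those with the largest rise and fall, and the 2 genes nearest to *EGFR* and *PTGS2*. In 2 lists the most abundant gene is not reported here. Marker genes and others beyond this rule were picked after their values were seen. Alternatives were pseudocounts of 0.1 and 0.01, no filter, a minimum mean of 5 FPKM, a common median, upper quartile or sum for both groups, and a common sum without the highest gene. The log2 ratio with no pseudocount was added after seeing the data. Python 3.11.15, numpy 2.4.6 and pandas 2.3.3 were used.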

Additional observations from a re-analysis of the deposited data

How the results depend on the processing

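No paired analysis was possible because the table holds 1 value per gene and group with no replicate numbers, and for the same reason no library could be left out. Over 9 alternatives *EGFR*, *PTGS2*, *HBEGF* and *AREG* were lower and *HAS2*, *PTX3* and *BTC* higher in pLVX-*RBP4* cells wherever they had a value, and *PTGES* changed sign. *EGFR* ranged from -0.47 to -0.27 and *PTGS2* from -0.47 to -0.32. The count of 2 members lower by at least 0.322 became 1, and that of 5 members lower became 3, with a mean FPKM of at least 5, which left 5 members. The first count was 0 after rescaling to a common sum, which moved the median of all genes to 0.073 and the share of lower genes to 35.1%. Upper quartile scaling put that share at 56.6%. Rescaling without the gene of the highest value put it at 69.9%, the median of all genes at -0.10 and the medians of the lists at -0.34 for further EGF family ligands, -0.26 for ERBB receptors, -0.14 for ligand shedding, -0.14 for signal transduction, -0.14 for feedback inhibitors, -0.062 for the prostaglandin list and -0.093 for the ovulation list. Of 168 alternative values, 153 moved by less than 0.1, or by at most 1.5 times for counts, and 15 moved by more. With 1 value per group, no difference can be set against the spread between libraries.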

Other observations

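Some genes of the ovulatory pathway were read only at very low levels, where the ratio of the groups rests on few fragments. *IL6*, a cytokine of the expanding cumulus, had 0.103 FPKM in CTRL cells and 0.0361 FPKM in pLVX-*RBP4* cells, and *LHCGR* had 0.209 and 0.0937 FPKM. *NPPC*, whose peptide holds the oocyte in meiotic arrest, had 0.0783 FPKM in CTRL cells and was listed at 0 in the other, while *NPR2*, the gene of its receptor, had 29.4 and 25.03 FPKM. The genes of the inter-alpha-trypsin inhibitor heavy chain family were unequal in level. *ITIH4* had 14.5 and 13.0 FPKM and *ITIH3* 4.01 and 3.38 FPKM, whereas *ITIH1* had 0.110 and 0.0310 FPKM and *ITIH2* 0.391 and 0.145 FPKM. *ITIH5* had 1.54 and 1.47 FPKM. The values of all 5 were lower in pLVX-*RBP4* cells, as were 49.8% of the genes with a mean of 1 FPKM or more, a level that *ITIH1* and *ITIH2* did not reach. These genes were picked after their values were seen, and whether the differences exceed the spread between libraries was not tested.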
